A study of Mus musculus with 4 samples.

Results

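The genes described here are 7 standard readouts of bone morphogenetic protein (BMP) signalling, Id1, Id2, Id3, Id4, Atoh8, Bambi and Hey1. They were taken by name from the usual list of such readouts, with earlier results of these data known, and are 7 of 21523 protein-coding genes placed on chromosomes 1 to 19 and X. Binding of phosphorylated Smads was profiled by CUT&RUN, in which micrococcal nuclease is brought to chromatin by an antibody and cuts out the DNA around the bound sites for sequencing. All samples came from CD1 mouse embryos of wild-type genotype at E13.5, the bud stage of the tooth, and were molar tooth germs dissociated to single cells. No treatment is labelled. One group of 2 libraries was made with a pSmad1/5 antibody (Cell Signaling Technology) and the other group of 2 with a pSmad3 antibody (Abcam). Each antibody is represented by 1 deposited list of peaks common to its libraries, with 10741 peaks for pSmad1/5 and 7905 for pSmad3. There are no values per library, so nothing below carries a replicate error. The read depth behind a peak is unknown. Whole tooth germs hold epithelium and mesenchyme, and the lists give binding calls, not RNA, so neither the tissue nor the expression of any gene could be checked against markers.

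BMP receptors phosphorylate Smad1 and Smad5, whereas TGF-β and activin receptors phosphorylate Smad2 and Smad3. Either kind joins Smad4, enters the nucleus and binds short GC-rich or CAGAC-type DNA elements. Id genes encode helix-loop-helix proteins without a DNA-binding region, which pair with E proteins and keep them off DNA, and their induction is the usual sign that a cell has responded to BMP. Bambi is a receptor-like membrane protein without a kinase that dampens the same signal, Atoh8 is a basic helix-loop-helix factor of the Atonal family, and Hey1 is a transcriptional repressor known both as a Notch target and as a BMP target.

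Few peaks lay at these genes, in numbers close to those at genes in general. The locus of a gene was taken as its body and 10 kb on each side, and a peak counted if it shared at least 1 bp with it. Atoh8 was the only gene of the 7 with pSmad1/5 peaks in its locus, and Id1 the only gene with a pSmad3 peak, while Id2, Id3, Id4, Bambi and Hey1 had none. The share of protein-coding genes so marked was 27.3% for pSmad1/5 and 24.4% for pSmad3. Read against these shares, 1 of 7 genes for each antibody does not set the group apart. No locus held peaks of both antibodies, which does not set the group apart either. Loci with both were a minority among protein-coding genes too. A pSmad1/5 peak was found at 27.3% of them, and 13.2% had pSmad1/5 peaks without a pSmad3 peak. No peak of either list lay in the locus of 5 of the 7 genes, or 71.4%, where 62.4% of protein-coding genes had none. With 50 kb on each side instead, 4 of the 7 genes had a pSmad1/5 peak (47.3% of protein-coding genes), 4 a pSmad3 peak (42.4%) and 2 neither (42.2%). A missing peak means no deposited call, since signal below the calling threshold is not in the lists. In mm10 coordinates the genes lie at 152736251 to 152737410 on chromosome 2 (Id1), 25093799 to 25096092 on chromosome 12 (Id2), 136143822 to 136145392 on chromosome 4 (Id3), 48261116 to 48266028 on chromosome 13 (Id4), 72206174 to 72235780 on chromosome 6 (Atoh8), 3507011 to 3516404 on chromosome 18 (Bambi) and 8663359 to 8667038 on chromosome 3 (Hey1).

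**Figure D1:**
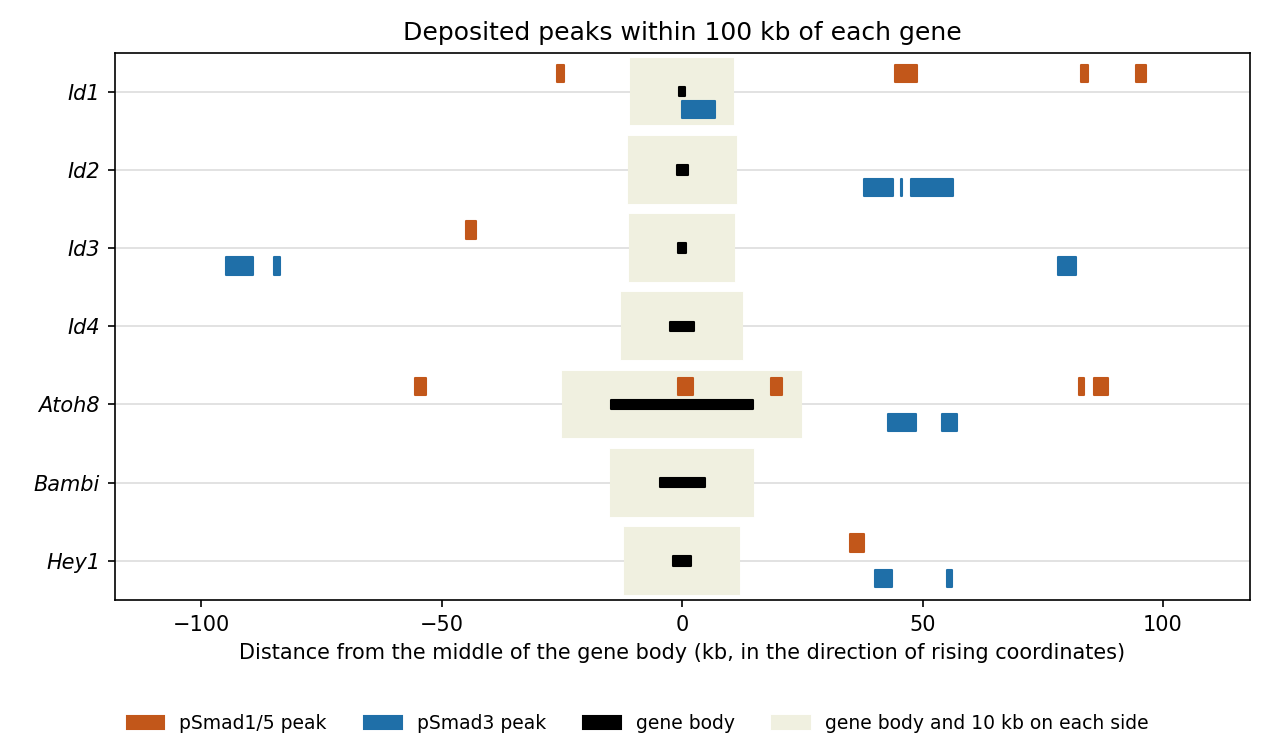
Deposited peaks of pSmad1/5 (upper boxes of each line) and pSmad3 (lower boxes) within 100 kb of each gene body, plotted by distance in kb from the middle of the gene. Black bars are gene bodies and shaded bands the loci; peaks fall in the bands of Atoh8 (2, pSmad1/5) and Id1 (1, pSmad3), and the lines of Id4 and Bambi are empty.

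Id1 carried a pSmad3 peak that started inside the gene and ran out of it. The peak spanned 152736834 to 152743752, a width of 6919 bp against a list median of 4693 bp. It started 583 bp after the lower-coordinate end of the gene, covered 577 of the 1160 bp of the gene body, and extended 6342 bp beyond the other end. The place of highest signal was not in the gene. The recorded region of the maximum ran over 2874 bp, from 152739897 to 152742770, and its near edge lay 2487 bp outside Id1. The signal at each base between these ends is not given. The peak's total signal was 29240, at percentile 53.4 of the pSmad3 list, and its maximum was 12, below the list median of 13. These are the authors' own coverage values for the peak and are ranked only within their list. Id1 was the only protein-coding gene whose locus this peak touched. Of protein-coding genes, 10.3% had a pSmad3 peak and no pSmad1/5 peak in the locus.

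The pSmad1/5 peaks closest to Id1 lay outside its locus and in or beside other genes. There were 4 within 100 kb. The nearest, at 152710794 to 152712331, was 23920 bp from Id1 and 2126 bp from H13, a signal peptide peptidase gene. It ranked at percentile 30.6, and its maximum of 15 was below the list median of 16. On the other side, 3 peaks lay inside Bcl2l1, which encodes an inhibitor of apoptosis. The strongest of these spanned 152781032 to 152785762, 43.6 kb from Id1, with a total signal of 101268 (percentile 78.5) and a maximum of 17. The other two were 82.3 and 93.9 kb away, at percentiles 45.8 and 53.7. The smallest gap between the Id1 pSmad3 peak and any pSmad1/5 peak was 24503 bp.

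Atoh8 had the opposite arrangement, with 2 pSmad1/5 peaks in the locus and no pSmad3 peak. Of protein-coding genes, 13.2% had pSmad1/5 peaks and no pSmad3 peak in the locus. The peak inside the gene spanned 72220193 to 72223308, and all 3116 bp of it lay within the gene body. Its total signal of 36085 was close to the lowest of the list (percentile 1.8) and its maximum was 14, against a list median of 16. The recorded region of that maximum, 72223368 to 72223407, lay 60 bp beyond the end of the peak, still inside Atoh8. The second peak, at 72239471 to 72241837, lay 3691 bp outside the gene. RefSeq places Atoh8 on the minus strand, so this is the side upstream of its start. Its total signal was 67050 (percentile 61.5), its maximum was 15, and the region of that maximum (72238697 to 72238727) lay 744 bp outside the peak on the side of Atoh8, 2917 bp from the gene. The 2 peaks came from separate calls. Atoh8 is also by far the longest of the 7 genes, with a body of 29607 bp and a locus of 49607 bp, where the other loci run from 21160 to 29394 bp.

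Both antibodies had further peaks around Atoh8. For pSmad1/5, a peak 38.5 kb away at 72165515 to 72167659 (percentile 32.3) lay over the long non-coding RNA gene Gm38832. Another pair, 67.7 and 70.9 kb away at percentile 7.6, were pieces of 1 call at Sftpb, a surfactant protein gene. For pSmad3, a peak spanned 72263711 to 72269591, on the upstream side, 27931 bp from Atoh8 and with Atoh8 as its nearest protein-coding gene. It ranked at percentile 83.4 by total signal (50388), but its maximum of 13 only equalled the list median. A weaker pSmad3 peak (percentile 18.5) lay 39.2 kb away. The strongest pSmad1/5 and pSmad3 peaks near Atoh8 were 21874 bp apart and did not overlap.

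Hey1 had no peak in its locus, but the antibodies came closest to each other beside it. A pSmad1/5 peak at 8700115 to 8703026 lay 33077 bp from the gene, with a total signal of 46421 (percentile 35.1) and a maximum of 17 against a list median of 16. A pSmad3 peak at 8705365 to 8708883 lay 38327 bp from the gene, with a total signal of 40034 (percentile 75.2) and a maximum of 15 against a list median of 13. The gap between these peaks was 2339 bp, the smallest between the lists within 100 kb of any of the 7 genes. A second pSmad3 peak, 53.2 kb from Hey1, was near the bottom of its list (percentile 5.9). None of these peaks lay over an annotated gene. Their nearest protein-coding gene was LOC115489673, a predicted gene that adjoins Hey1.

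Among the Id genes without a peak in the locus, Id2 had pSmad3 peaks alone within 100 kb. The nearest, 36657 bp away at 25132749 to 25138760, was weak (percentile 21.6, maximum 11). Beyond it, 2 peaks of 1 call, at 25140531 to 25140686 and 25142558 to 25151236, shared a total signal of 51323 (percentile 84.0) and a maximum of 18, which was the highest maximum among the pSmad3 peaks near the 7 genes. These 2 pieces lay over the long non-coding RNA gene Gm36287, 44.4 and 46.5 kb from Id2, and for all 3 peaks Id2 was the nearest protein-coding gene. The closest pSmad1/5 peak to Id2 was 117391 bp away, at 25213483 to 25215450 (percentile 23.1).

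Id3 had peaks of both antibodies at a distance, with a single pSmad1/5 peak within 100 kb and pSmad3 peaks on both sides. The pSmad1/5 peak at 136099632 to 136101815 lay 42007 bp away, with Id3 as its nearest protein-coding gene. Its total signal of 52841 was at percentile 47.0, but its maximum of 13 was at percentile 8.2 of the list. The pSmad3 peaks were farther off, at 77.3, 82.8 and 88.5 kb, and each was nearer to another gene. The strongest of them (percentile 83.0, maximum 16) lay over Rpl11, a ribosomal protein gene, and the 77.3 kb peak (percentile 23.5) lay inside Asap3.

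Id4 and Bambi had no peak of either antibody within 100 kb, as was so for 31.1% of protein-coding genes. Within that distance 4 of the 7 genes had a pSmad1/5 peak, against 59.9% of protein-coding genes, and 5 had a pSmad3 peak, against 54.2%. The nearest pSmad1/5 peak was 528576 bp from Id4 and the nearest pSmad3 peak 220011 bp. For Bambi these distances were 359809 and 384940 bp, and Bambi was the only gene of the 7 without a peak within 300 kb, as were 15.2% of protein-coding genes.

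**Figure D2:**
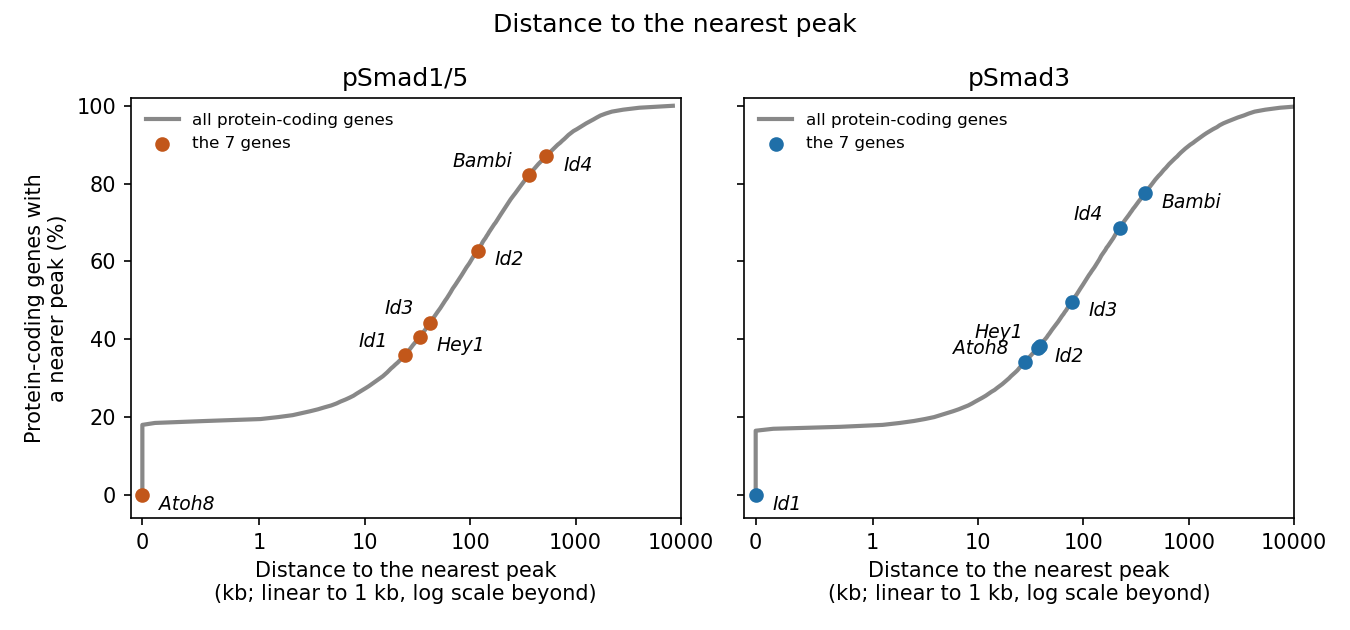
Distance from each of the 7 genes to the nearest peak (points; pSmad1/5 left, pSmad3 right) on the curve for all 21523 protein-coding genes, with distance in kb on the x axis and the percentage of protein-coding genes with a nearer peak on the y axis. The points run from 0 kb, at Atoh8 for pSmad1/5 and Id1 for pSmad3, to the upper part of the curve at Id4 and Bambi.

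Ordered by distance to the nearest pSmad1/5 peak, the genes were Atoh8, Id1, Hey1, Id3, Id2, Bambi and Id4. Between 35.9% and 62.8% of protein-coding genes had a nearer pSmad1/5 peak than Id1, Hey1, Id3 and Id2, so these 4 sat in the middle of the range of all genes. The figures were 82.2% for Bambi and 87.1% for Id4. For pSmad3 the order was Id1, Atoh8, Id2, Hey1, Id3, Id4 and Bambi, with shares of 34.2% to 49.6% for Atoh8 through Id3, 68.6% for Id4 and 77.6% for Bambi. The median distance was 42.0 kb over the 7 genes and 58.1 kb over all protein-coding genes for pSmad1/5, and 38.3 kb and 79.2 kb for pSmad3. With 1 list per antibody there is no spread against which neighbours in these orders could be told apart.

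The 11 pSmad1/5 and 11 pSmad3 peaks within 100 kb of the 7 genes spread over much of the range of their lists by total signal. The pSmad1/5 peaks came from 10 calls and ranged from percentile 1.8 to 78.5 by total signal (median 35.1), with maxima of 13 to 17. The pSmad3 peaks also came from 10 calls and ranged from percentile 2.5 to 84.0 (median 53.4), with maxima of 11 to 18. A maximum above the list median was found in 2 of the 11 pSmad1/5 peaks, against 47.9% of that list, and in 5 of the 11 pSmad3 peaks, against 45.2%. Of the pSmad1/5 peaks 3 had the gene in question as nearest protein-coding gene, and of the pSmad3 peaks 5. None of the 11 pSmad1/5 and none of the 11 pSmad3 peaks overlapped a peak of the other antibody. Of all peaks, 21.9% for pSmad1/5 and 23.1% for pSmad3 did. These shares include peaks with maxima over 32 for pSmad1/5 or over 26 for pSmad3. No peak of that height lay within 100 kb of the 7 genes. The shares without such peaks were not computed, so whether they bear on the difference was not tested. In a window of 300 kb, 2 of 24 pSmad1/5 and 2 of 23 pSmad3 peaks overlapped. Both of these counts of overlap were chosen after the data were seen.

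**Figure D3:**
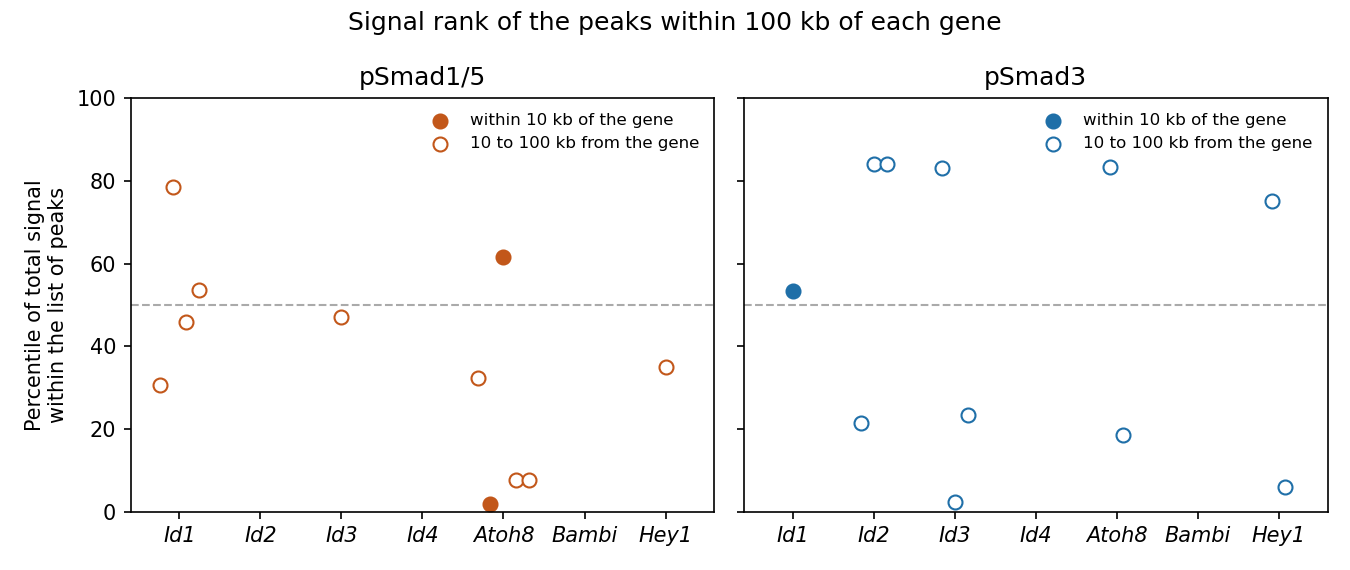
Percentile of total signal within its own list (y axis) for each peak within 100 kb of the 7 genes (x axis), with pSmad1/5 left and pSmad3 right. Filled points lie within 10 kb of the gene and open points farther out, and the dashed line is the list median. The filled points are Atoh8 at 1.8 and 61.5 and Id1 at 53.4.

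Promoter sequences are shown because no peak touched them, so that the Smad elements they hold can be read beside the calls. The table of RefSeq promoters used here is that of GRCm38.p6, the assembly of mm10. Promoters from it are printed for 4 of the 7 genes, Id2, Id3, Id4 and Atoh8. Bambi was left out of the matching, so whether the table holds its promoter was not tested. The 250 bases before each start are given 5′ to 3′ on the strand of the gene. Capitals mark GGCGCC, a GC-rich element bound by Smad1/5, and CAGAC or its reverse complement GTCTG, which holds the Smad box; both strands were searched. They are chr12:25096093-25096342, minus strand, for Id2, chr4:136143572-136143821, plus strand, for Id3, chr13:48260866-48261115, plus strand, for Id4, and chr6:72235578-72235827, minus strand, for Atoh8. Most of the Atoh8 window lies in the gene body as given above, which ends at 72235780. The start used for Atoh8 is therefore inside that body, and its window is mostly not sequence upstream of the gene.
Id2: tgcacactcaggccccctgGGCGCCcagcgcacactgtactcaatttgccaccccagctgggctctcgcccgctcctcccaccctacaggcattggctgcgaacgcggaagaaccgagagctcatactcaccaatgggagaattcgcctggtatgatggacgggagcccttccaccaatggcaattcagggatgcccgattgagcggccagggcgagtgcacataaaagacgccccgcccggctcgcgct
Id3: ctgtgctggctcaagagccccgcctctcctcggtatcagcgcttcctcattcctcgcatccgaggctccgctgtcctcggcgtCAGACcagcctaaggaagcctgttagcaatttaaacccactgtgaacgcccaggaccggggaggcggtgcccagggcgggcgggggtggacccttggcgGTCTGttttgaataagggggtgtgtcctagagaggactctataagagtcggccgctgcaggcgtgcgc
Id4: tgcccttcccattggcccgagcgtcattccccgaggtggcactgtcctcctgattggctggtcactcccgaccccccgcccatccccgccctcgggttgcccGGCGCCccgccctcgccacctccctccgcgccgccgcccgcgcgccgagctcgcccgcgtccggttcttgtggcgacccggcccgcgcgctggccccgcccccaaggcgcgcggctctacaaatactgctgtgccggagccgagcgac
Atoh8: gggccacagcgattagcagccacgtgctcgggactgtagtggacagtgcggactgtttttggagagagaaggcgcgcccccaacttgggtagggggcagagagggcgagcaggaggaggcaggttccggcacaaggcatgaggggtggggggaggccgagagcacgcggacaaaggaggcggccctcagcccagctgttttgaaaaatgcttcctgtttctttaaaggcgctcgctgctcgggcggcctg
Id2 and Id4 each held 1 GGCGCC, which 9.59% of the 32851 promoters in the table hold in the same 250 bases. Id3 held 2 of the CAGAC type and no GGCGCC, where 42.2% of promoters hold at least 1 CAGAC or GTCTG. The Atoh8 window held neither, nor the core GTCT or AGAC that lies within CAGAC and GTCTG and occurs in 82.9% of promoters. It held 2 E-boxes (CANNTG), the sites of basic helix-loop-helix factors, found in 66.2% of promoters. Id2 held 1 E-box, and Id3 and Id4 none. The windows were GC-rich, at 62.8% for Id2 and Id3, 75.6% for Id4 and 63.2% for Atoh8, against a median of 52.4% over the table. No window was touched by a peak. The nearest was the upstream pSmad1/5 peak of Atoh8, 3644 bp from the printed bases. A match of letters is a description and not a binding site.

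Other genes of the pathway were read the same way, from lists chosen with earlier results of these data known. Of 17 other BMP targets, 5 had a pSmad1/5 peak in the locus and 7 a pSmad3 peak, or 29.4% and 41.2%, and 7 had neither (41.2%). The shares over protein-coding genes were 27.3%, 24.4% and 62.4%. The pSmad1/5 peaks with the highest total signal in their list were at Smad6 (percentile 73.3), the inhibitory Smad of the BMP branch, Tbx2 (60.9), a T-box repressor, and Nog (36.3), the BMP antagonist Noggin, whose peak lay 8616 bp from the gene. For pSmad3 they were at Gata2 (82.3), a zinc finger factor, Smad7 (80.4), an inhibitory Smad, and Tbx2 (68.3). Of the relatives of Hey1, Hey2 had 1 pSmad3 peak over the gene (percentile 44.5) and Heyl had 2 pSmad3 peaks (highest percentile 35.8), and neither had a pSmad1/5 peak in the locus.

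Most genes of the other steps of the pathway, and of the partners and relatives of the Id proteins, had no peak in the locus, as among protein-coding genes in general (62.4%). Of 18 BMP ligands, receptors and Smads, 3 had a pSmad1/5 peak (16.7%), 5 a pSmad3 peak (27.8%) and 13 neither (72.2%). The ligand genes Bmp7 (percentiles 85.5 for pSmad1/5 and 66.3 for pSmad3) and Bmp6 (69.0 and 64.7), together with Smad5 (19.2 and 3.1), had both. The type I receptor genes Acvrl1 (25.9) and Bmpr1b (17.6) had pSmad3 alone. Of 24 genes of E proteins and other basic helix-loop-helix factors, 3 had a pSmad1/5 peak (12.5%), 5 a pSmad3 peak (20.8%) and 18 neither (75%). Tcf3, which encodes the E proteins E12 and E47 that Id proteins bind, had a peak of each antibody over the gene, at percentile 91.8 for pSmad1/5 and 94.5 for pSmad3, with maxima of 19 and 16. The E protein genes Tcf4 and Tcf12 had neither. Atoh7, a relative of Atoh8, had a pSmad1/5 peak 3490 bp from the gene (51.0), and Twist2 had peaks of both antibodies (8.7 and 42.3). Scx (90.7) and Hes5 (56.1) had pSmad3 alone.

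**Figure D4:**
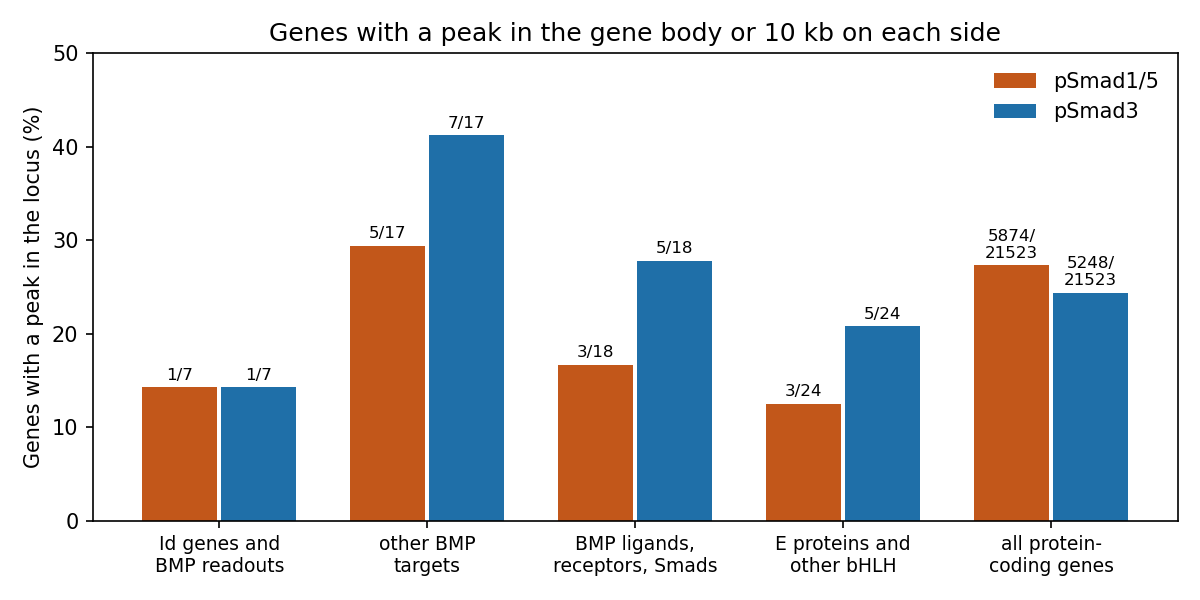
Share of genes (y axis, %) with a pSmad1/5 or pSmad3 peak in the gene body or 10 kb on each side, for the 7 genes, the 3 other lists and all protein-coding genes. Labels give the genes with a peak over the genes in the list, 1/7 for both antibodies at the left and 27.3% and 24.4% of protein-coding genes at the right.

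Many genes share the patterns of Id1 and Atoh8. Another 1811 protein-coding genes had 1 pSmad3 and no pSmad1/5 peak in the locus. Those closest to Id1 in percentile were 1700003E16Rik (53.5), Klf9 (53.3) and Rtkn (53.5), and 5 genes lay within 0.1 of Id1. Another 576 had 2 pSmad1/5 peaks and no pSmad3 peak, with Ndufa13 (61.4), Catsperg2 (61.2) and Lmnb2 (61.1) closest to Atoh8. This likeness rests on the number of peaks in both lists. It also rests on the highest percentile, in the pSmad3 list for Id1 and in the pSmad1/5 list for Atoh8.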

How the data were processed

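CUT&RUN libraries of 2 groups, pSmad1/5 and pSmad3 (2 libraries each), were digested for 30 min and sequenced as paired-end reads of 100 bp, per the labels' protocols. Bowtie2, SAMtools, bedtools, deepTools and, for peaks, SEACR were used with build mm10, per the submitters' processing notes. Settings, control libraries and the way the 2 libraries were joined are not stated there. The deposited values are the total and maximum coverage signal of each SEACR call in the authors' own scaling, so they were ranked only within a list. Lines equal in total, maximum and place of the maximum were treated as pieces of 1 call. Only 27.1% of pSmad1/5 and 70.0% of pSmad3 peaks contain the place of their maximum, so a peak's signal is that of its call.

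Genes came from the RefSeq table of GRCm38.p6, without genes in the first 3 Mb of a chromosome. Starts were made 1-based, and distances are coordinate differences from the nearer edges. Percentiles are average ranks of total signal. No test was run. Named genes were the 7 members, up to 3 genes per other list and antibody by highest percentile, genes nearest to the peaks around members, and the 3 genes most like each member with a peak. Tcf4, Tcf12, Hey2, Heyl, Smad5 for pSmad3 and Bmpr1b were named after their values were seen. Members and lists were chosen with earlier results of these data known. Alternatives varied the flank, the part of the peak counted, the peaks used and the background. Counting of overlaps and distances was checked on simulated data. Python 3.11.15 with pandas 2.3.3 and NumPy 2.4.6 was used.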

Additional observations from a re-analysis of the deposited data

How the results depend on the processing

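Counts of genes with a pSmad1/5 peak, a pSmad3 peak or neither (1, 1 and 5) were the same with the gene body alone, with flanks of 5 or 20 kb, with peak midpoints, with the region of the maximum, with peaks at or above the list's median total signal and without maxima over 2 times the list median. A flank of 50 kb gave 4 genes with a pSmad1/5 peak (Id1, Id3, Atoh8 and Hey1; 47.3% of protein-coding genes), 4 with a pSmad3 peak (Id1, Id2, Atoh8 and Hey1; 42.4%) and 2 with neither (Id4 and Bambi; 42.2%). The shares of background genes fell to 23.7% for pSmad1/5 and 21.1% for pSmad3 among the 13959 protein-coding genes no longer than Atoh8, and to 19.7% and 17.6% over all 49214 genes. Over the flanks tried they ran from 18.4% to 47.3% and from 16.8% to 42.4%. No paired analysis was possible because each antibody has 1 list for its 2 libraries and no test was run. Leaving out a library was not run for the same reason. With unknown depth, a gene without a peak cannot be told from a gene below the calling threshold.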
